A study of Homo sapiens with 5 samples.

Results

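The genes described are those of the desmosome, 10 in all, out of 17651 genes that could be named in both deposited tables of the study. They were taken by symbol: the cadherins DSG2, DSG3, DSC2 and DSC3, the plaque proteins DSP, JUP, PKP1, PKP2 and PKP3, and the membrane protein PERP. Each had a single probe set annotated with its symbol alone in either table. RNA came from MCF12A, a human cell line established from breast epithelium that does not form tumours, and was hybridised to Affymetrix Gene ST arrays, 1 array per group. One table held a culture kept in 2.5% ethanol for 4 weeks, a culture kept in 1% acetaldehyde for 4 weeks, and their untreated control. The other held 1 cell clone that was recovered from soft agar, a test of growth without attachment, after 4 weeks of ethanol exposure, and that clone's own control. For the clone the stated ethanol dose differs, being 2.5% in its label and 2.5 mM in the design text. Its control is labelled as unexposed and also carries the soft agar tag, so ethanol exposure and selection cannot be told apart in that pair. All 5 cultures were grown as monolayers in the same serum and growth factors.

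Desmosomes are spot-like junctions that tie the keratin filaments of neighbouring epithelial cells together and give the sheet its resistance to pulling. Desmogleins (DSG) and desmocollins (DSC) span the membrane and bind each other between cells. Inside the cell their tails hold the armadillo proteins plakoglobin (JUP) and the plakophilins (PKP), which in turn hold desmoplakin (DSP), the link to keratin. In the breast, as in skin, DSG3 and DSC3 belong to the basal and stratified type of desmosome, whereas DSG2 and DSC2 are also made by simple epithelia.

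Deposited values are array intensities on a linear scale, and differences are given as log2 of one array over another of the same table. A difference was counted only where the brighter array reached the median intensity of its table, 70.2 in the table of exposed cultures and 92.0 in that of the clone. This floor is not a measured background. Where the dimmer array lay under it, the fold is taken against the floor and given as at least that size. With 1 array per group there was no replicate check and no test could be run, so every difference below compares single cultures and its precision is limited by the number of arrays. Equal values in the ethanol and control arrays were found for 43.9% of probes, and in the acetaldehyde and control arrays for 48.2%, against 1.02% in the clone's pair. None of the 10 desmosome genes was among these ties. All 10 lay above the floor in both control arrays.

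DSC2, DSC3 and DSG3 were far lower in ethanol than in the untreated culture and far lower in the clone than in its own control, while the acetaldehyde culture kept levels close to control. DSC3, a desmocollin of basal cells, had an intensity of 95.5 in ethanol and 1189 in acetaldehyde, against 1389 in the control. That is 14.5-fold lower in ethanol and 85.7% of control in acetaldehyde. In the second table DSC3 had 22.5 in the clone, under the floor, and 2514 in the clone's control, which is at least 27.3-fold lower. DSC2, the most widely made desmocollin, had 75.3 in ethanol and 969 in acetaldehyde, against 1069 in the control. The ethanol value was 14.2-fold lower and stood just above the floor. In the clone DSC2 had 22.3, again under the floor, against 952 in its control, at least 10.3-fold lower. DSG3, the desmoglein of stratified epithelia and the antigen of pemphigus vulgaris, had 168 in ethanol and 1928 in acetaldehyde, against 2024 in the control. It was thus 12.1-fold lower in ethanol and at 95.2% of control in acetaldehyde. The clone had 49.7 and its control 3845, at least 41.8-fold lower.

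DSG2 departed from the other cadherins. This desmoglein, found in nearly every tissue that has desmosomes, had 684 in ethanol and 916 in acetaldehyde, against 939 in the control. The ethanol culture thus kept 72.8% of the control level, a log2 difference of -0.46 against -3.59 for DSG3. In the clone it had 546 against 1383 in the clone's control, 2.53-fold lower, and it was the only cadherin of the 4 that stayed above the floor there. Both cultures with low DSC2, DSC3 and DSG3 therefore still had DSG2 signal well inside the measured range.

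Desmoplakin, the plakin that anchors keratin filaments to the plaque and a part of every desmosome, was also far lower in ethanol and in the clone. DSP had 350 in ethanol and 2166 in acetaldehyde, against 2393 in the control, or 6.84-fold lower in ethanol and 90.5% of control in acetaldehyde. In the clone DSP had 70.4, under the floor, against 5079 in its control, at least 55.2-fold lower.

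The armadillo proteins of the plaque ranged more widely. JUP, or plakoglobin, which also serves in adherens junctions, had 495 in ethanol and 1760 in acetaldehyde, against 1921 in the control, 3.88-fold lower in ethanol. The clone had 1023 and its control 6449, 6.30-fold lower, so JUP remained well above the floor in every array. PKP1, the plakophilin of stratified epithelia, had 337 in ethanol and 1279 in acetaldehyde, against 1379 in the control, 4.09-fold lower in ethanol. It was 14.7-fold lower in the clone, at 159 against 2338. PKP3, which is made in most epithelia, moved least of the plaque genes in ethanol, at 168 in ethanol and 248 in acetaldehyde, against 250 in the control. Its log2 difference was -0.57 in ethanol and -0.70 in the clone, where it had 182 against 295, so it did not reach 2-fold in either.

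PKP2 was the member whose comparisons differed in direction. This plakophilin is found in simple epithelia and in heart muscle. It had 115 in ethanol and 363 in acetaldehyde, against 466 in the control. The ethanol value was 4.05-fold lower, close to PKP1 and JUP, and acetaldehyde had 77.8% of control, the lowest share among the 10 genes in that culture. In the clone PKP2 had 224 against 216 in its control, a log2 difference of 0.05, whereas the other plakophilins were lower there. With the table quantile-normalised a second time that value was -0.04, so its sign depends on the scaling.

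PERP, a small membrane protein of desmosomes that is a target of p53 and p63, was lower in both ethanol cultures but kept a bright signal. It had 1768 in ethanol and 4473 in acetaldehyde, against 4767 in the control, 2.70-fold lower in ethanol. The clone had 1266 and its control 9214, 7.28-fold lower.

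**Figure D1:**
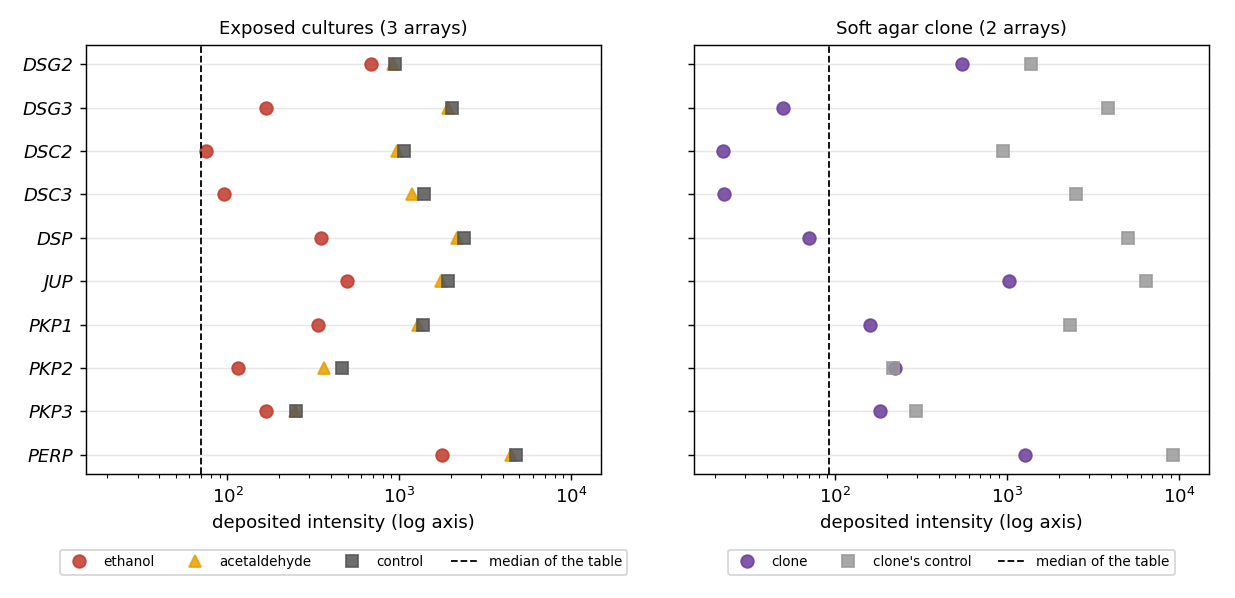
Deposited intensity (log axis) of the 10 desmosome genes in each array, for the exposed cultures on the left and the soft agar clone on the right; the dashed line is the median of the table. Ethanol lies left of control for all 10 genes and acetaldehyde lies close to control, and in the clone 4 genes (DSC2, DSC3, DSG3 and DSP) fall under the dashed line.

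Counted together, 8 of the 10 genes fell short of the control by 2-fold or more in ethanol and 0 exceeded it by as much, against 2.44% lower and 2.63% higher among all 11264 genes past the floor. All 10 lay below control by some amount, as did 35.1% of all genes, or 53.5% of them after a lowess correction for brightness. Genes tied between the arrays cannot count as below control, and none of the 10 was tied, so 35.1% is not a like background. The median log2 difference of the 10 was -2.02, where the median over all genes was 0.00. DSC3, DSC2 and DSG3 stood at ranks 6, 10 and 12 from the lowest of those genes, DSP at 38, and PKP1, PKP2 and JUP at 77, 79 and 83. PERP stood at 159, PKP3 at 589 and DSG2 at 760. The 10 genes were chosen with earlier results of these data known. Since fewer cells making these junctions and less RNA per cell give the same value in a bulk culture, the arrays cannot tell them apart.

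In acetaldehyde 0 of the 10 reached 2-fold in either direction, beside 0.0536% of all 11194 genes lower and 1.03% higher. Levels ran between 77.8% and 99.1% of control, with a median log2 difference of -0.12 against 0.00 over all genes. Each of the 10 was again below control by some amount, beside 31.9% of all genes. That background depends on ties and on the scaling. Tied genes cannot count as below control, 48.2% of probes were tied between these arrays, and none of the 10 genes was. After a second quantile normalisation the share of all genes was 73.2%, with a median over them of -0.02, and all 10 were again below control. PKP2 stood at rank 172 from the lowest of all genes there and DSC3 at 499, and the smallest was that of PKP3, at 99.1% of control. The ethanol and acetaldehyde differences share 1 control array.

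In the clone 8 of the 10 were at least 2-fold lower than in its control and 0 higher, where 5.83% of all 12262 genes were lower and 14.7% higher. The median log2 difference was -3.37, against -0.02 over all genes. DSC3, DSG3, DSP and DSC2 stood at ranks 4, 6, 7 and 16 from the lowest, PKP1 at 53, PERP at 103, JUP at 121 and DSG2 at 409. All 4 of the first lay under the floor in the clone, so their order among themselves is not resolved. PKP3 stood at 1338 and PKP2 at 6546, near the middle. Over all probes the median difference of the clone was -0.17, and with every value centred on it the same number, 8, was at least 2-fold lower, with a median of -3.20.

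**Figure D2:**
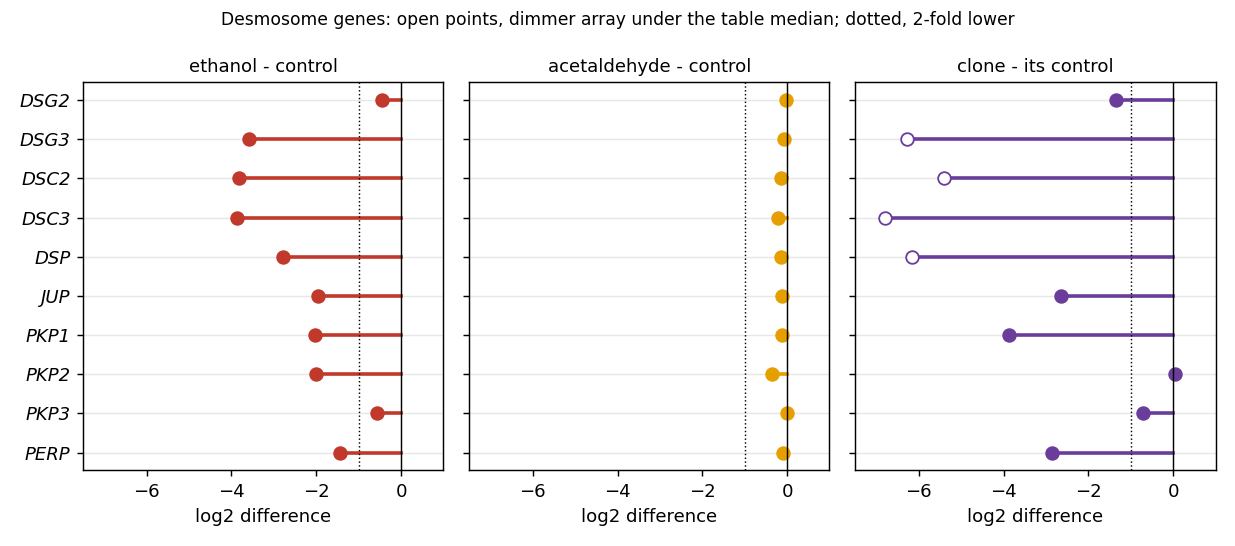
Log2 difference of each desmosome gene from its own control in ethanol, acetaldehyde and the clone; open points mark genes whose dimmer array lay under the median of the table, and the dotted line marks 2-fold lower. DSG2 and PKP3 are short in ethanol, all acetaldehyde points sit near 0, and PKP2 stands at 0.05 in the clone.

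**Figure D3:**
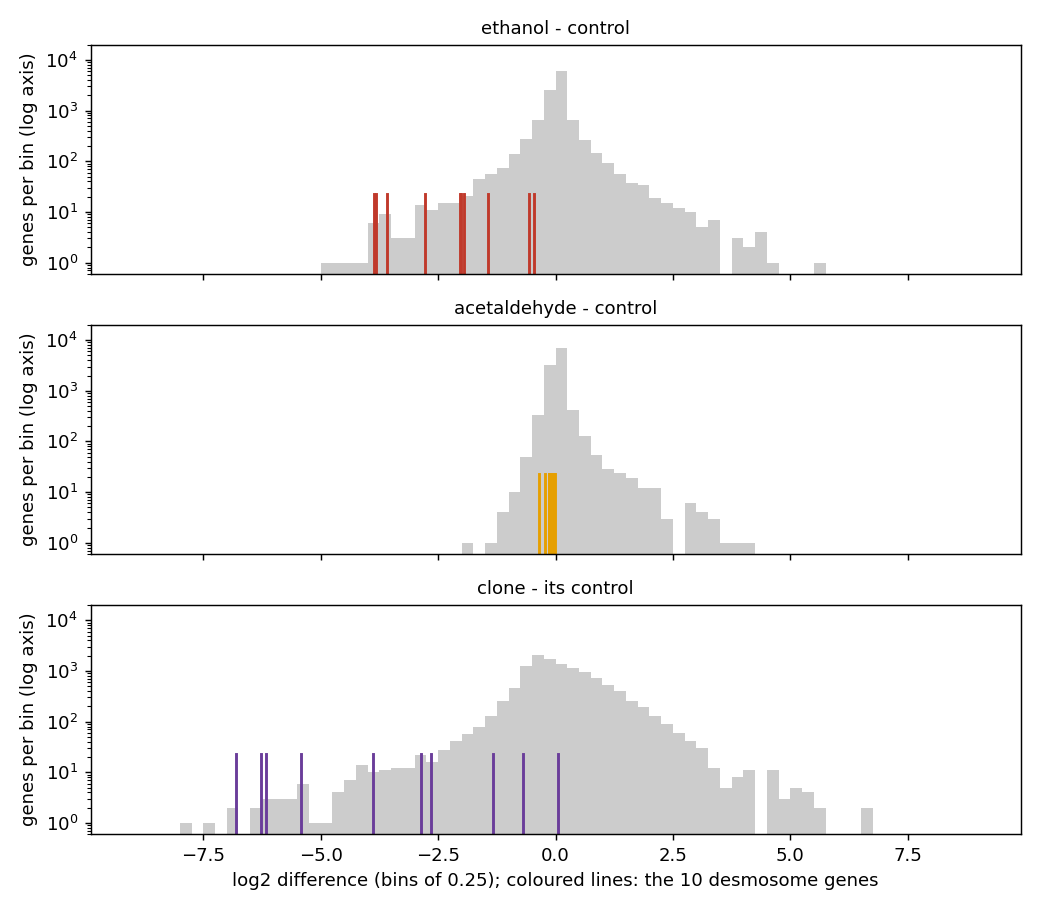
Number of genes past the floor (log axis) by log2 difference, in bins of 0.25, for ethanol, acetaldehyde and the clone, with the 10 desmosome genes as coloured lines. Most lines lie in the far lower tail for ethanol and the clone, and within 0.36 below 0 for acetaldehyde.

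Set directly against ethanol, acetaldehyde had at least 2-fold higher levels of 8 of the 10 genes and lower levels of 0, beside 1.85% and 0.526% of 11221 genes. The labelled doses of the compounds differ. The median log2 difference was 1.88, against 0.00 over all genes. DSC2 was 12.9-fold higher in acetaldehyde, at 969 against 75.3, and DSC3 12.5-fold and DSG3 11.5-fold higher. PKP2 was 3.15-fold higher, and PKP3 and DSG2 were 1.47 and 1.34-fold higher, short of 2-fold.

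The 4 cadherins lie in one gene cluster on chromosome 18, where direct neighbours differed in how far they moved. In the RefSeq gene order of assembly GRCh38.p14, the cluster reads DSC3, DSC2, DSC1, DSG1, DSG4, DSG3 and DSG2. DSG3 and DSG2 stand next to each other, yet in ethanol their log2 differences were -3.59 and -0.46, and in the clone -6.27 and -1.34. DSC1, DSG1 and DSG4, cadherins of the outer epidermis and hair, lay under the floor in all 5 arrays and give no difference. Outside the cluster on the DSC3 side the nearest protein-coding gene is CDH2, which encodes N-cadherin, a classical cadherin of mesenchymal and neural cells. CDH2 had 282 in ethanol and 182 in acetaldehyde, against 94.6 in the control, and 223 in the clone against 45.4 in the clone's control, a value below the floor. It was thus 2.98-fold higher in ethanol, 1.93-fold higher in acetaldehyde and at least 2.42-fold higher in the clone. That is the opposite direction to DSC3, which is next to it in gene order, though the distance between them was not considered. On the DSG2 side, TTR and SLC25A52 lay under the floor in every array, and B4GALT6 reached it only in the ethanol culture, with a log2 difference of 0.22.

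**Figure D4:**
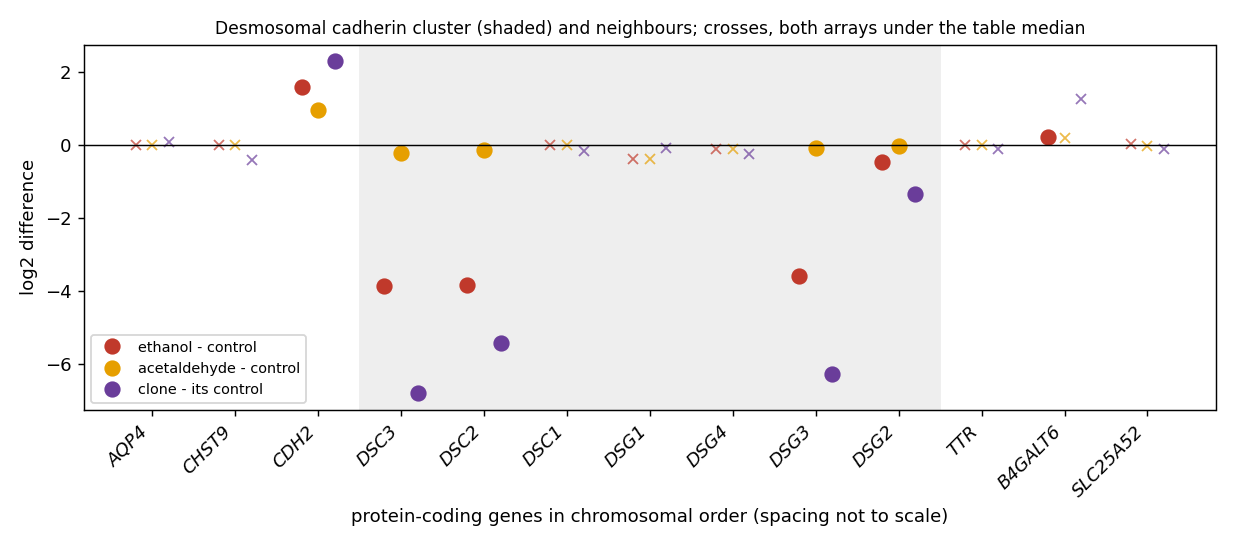
Log2 difference from the own control of the desmosomal cadherin cluster (shaded) and 3 protein-coding genes on either side, in chromosomal order and not to scale; crosses mark genes under the median of the table in both arrays. DSC3, DSC2 and DSG3 fall far below 0 in ethanol and the clone, DSG2 beside DSG3 much less, and CDH2 lies above 0 in all 3 comparisons.

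The stretches before the start sites of the 4 cadherin genes and of DSP are shown because these genes hold both the widest differences and, in DSG2, one of the narrowest. Each is the 250 bases upstream of the start, from the RefSeq promoter table of GRCh38.p14, read 5′ to 3′ on the strand of the gene, and capitals mark CACCTG on either strand, the E-box bound by repressors of the ZEB and SNAI families. The windows are chr18:31042743-31042992 on the minus strand for DSC3, chr18:31102422-31102671 on the minus strand for DSC2, chr18:31447491-31447740 on the plus strand for DSG3, chr18:31497927-31498176 on the plus strand for DSG2, and chr6:7541421-7541670 on the plus strand for DSP.
DSC3: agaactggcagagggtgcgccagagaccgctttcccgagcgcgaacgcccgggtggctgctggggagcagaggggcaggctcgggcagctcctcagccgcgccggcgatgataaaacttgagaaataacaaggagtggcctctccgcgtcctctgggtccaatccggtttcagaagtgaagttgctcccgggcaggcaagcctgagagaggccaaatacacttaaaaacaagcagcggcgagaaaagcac
DSC2: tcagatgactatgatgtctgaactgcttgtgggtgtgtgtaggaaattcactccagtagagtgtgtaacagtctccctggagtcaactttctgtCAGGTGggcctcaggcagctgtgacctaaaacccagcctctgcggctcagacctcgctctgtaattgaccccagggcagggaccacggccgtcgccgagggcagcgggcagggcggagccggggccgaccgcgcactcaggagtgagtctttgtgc
DSG3: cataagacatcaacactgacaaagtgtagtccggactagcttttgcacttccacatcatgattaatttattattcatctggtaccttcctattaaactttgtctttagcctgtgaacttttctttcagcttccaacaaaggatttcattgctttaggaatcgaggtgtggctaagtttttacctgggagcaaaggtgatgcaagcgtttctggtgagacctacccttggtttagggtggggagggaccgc
DSG2: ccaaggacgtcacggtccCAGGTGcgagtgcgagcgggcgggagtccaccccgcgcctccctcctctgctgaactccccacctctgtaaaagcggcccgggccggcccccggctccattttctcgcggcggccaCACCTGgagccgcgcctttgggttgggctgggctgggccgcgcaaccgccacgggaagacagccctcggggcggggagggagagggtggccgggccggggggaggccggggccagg
DSP: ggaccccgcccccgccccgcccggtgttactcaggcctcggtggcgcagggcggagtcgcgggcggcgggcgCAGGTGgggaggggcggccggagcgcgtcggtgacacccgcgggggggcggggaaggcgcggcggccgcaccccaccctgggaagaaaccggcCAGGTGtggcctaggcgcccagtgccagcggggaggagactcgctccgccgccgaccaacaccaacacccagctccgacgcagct
The table held 10 windows for 8 of the members, with a second start for DSC2 and JUP and no entry for PKP2 and PKP3. CACCTG was present in 4 of the 10 windows, those shown for DSC2, DSG2 and DSP and that of the second start of JUP, beside 17.5% of all 35116 windows of the same length. DSG2 and DSP carry it 2 times each and DSC2 carries it 1 time, and DSC3 and DSG3 lack these letters in the window. The AP-1 motif TGANTCA was in the window of PERP alone, beside 6.57% of all windows, and the grainyhead motif AACNGGTT was in none of the 10, beside 1.49%. Matches on both strands were counted, and no match in these windows overlaps another. By base composition the DSG3 window stood apart, with 42.8% G and C against 75.2% for DSG2, 60.4% for DSC3, 59.6% for DSC2 and 78% for DSP, where the median of all windows was 58%.

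The remaining known desmosome genes stayed within 2-fold of control. Of 8 such genes 5 were past the floor, and 0 of 5 reached 2-fold in ethanol, acetaldehyde or the clone, with median log2 differences of -0.62, -0.19 and -0.31. In ethanol the log2 differences of these 5 ran from -0.76 to -0.003. CDSN, PPL and PKP4 had -0.76, -0.75 and -0.62 there, further from control than the members PKP3 and DSG2, at -0.57 and -0.46. CDSN had 84.8 in ethanol and 100 in acetaldehyde, against 144 in the control, and 130 in the clone against 162 in its control. PPL, which encodes periplakin, had 120 in ethanol and 208 in acetaldehyde, against 202 in the control, and 419 in the clone against 520 in its control. EVPL, which encodes envoplakin, its partner in the cornified envelope, had 83.6 in ethanol and 83.6 in acetaldehyde, against 83.8 in the control, and 128 in the clone against 210 in its control. PKP4, a relative of the plakophilins found in several kinds of junction, had 233 in ethanol against 358 in the control and 261 in the clone against 256 in its control. Thus the plakins of the envelope differed far less than DSP in the same arrays, but they were much dimmer in the controls, where DSP had 2393 and 5079. EVPL stood near the floor of 70.2 in the untreated control, which left little room for a lower value. Its ethanol and acetaldehyde values were identical, as were those of 46.5% of probes.

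Adherens junctions, the actin-linked partners of desmosomes, held genes on either side of control, also among their cadherins. Of 10 genes past the floor, 3 were lower and 1 higher by 2-fold in ethanol, with a median log2 difference of -0.40, and 4 were lower and 1 higher in the clone, with a median of -0.51. In acetaldehyde 0 of the 10 reached 2-fold, with a median of 0.07. CDH1, the E-cadherin gene, had 117 in ethanol and 1262 in acetaldehyde, against 1114 in the control, a log2 difference of -3.25 in ethanol, and CDH3, the P-cadherin gene of basal cells, was 7.24-fold lower, at 316 against 2285. The third lower gene in ethanol was NECTIN1, 2.07-fold, and the 1 higher gene was CDH2, described above. In the clone CDH1 had 43.6, below the floor, against 920, and CDH3 66.3, also below it, against 2773. CTNNB1, which encodes beta-catenin, the closest relative of plakoglobin, had no 2-fold difference but lay above control where JUP lay below. It had 2297 in ethanol and 1950 in acetaldehyde, against 1666 in the control, a log2 difference of 0.46 in ethanol where that of JUP was -1.96. In the clone CTNNB1 had 3129 against 1928, a log2 difference of 0.70, where that of JUP was -2.66.

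Hemidesmosomes, which tie keratin to the basement membrane, were also divided. Of 5 measured genes 2 were lower and 0 higher by 2-fold in ethanol, 0 reached 2-fold in acetaldehyde, and 2 were lower and 2 higher in the clone, with medians of 0.20, 0.04 and 0.24. The lower pair were the integrin genes ITGA6 and ITGB4, 2.78 and 2.99-fold lower in ethanol and 6.33 and 5.12-fold lower in the clone. The higher pair were DST and PLEC, which encode dystonin and plectin, plakins of the same family as desmoplakin. DST had 526 in the clone against 139 in its control, and PLEC had 1733 against 679, 3.78 and 2.55-fold higher, where DSP was at least 55.2-fold lower. In ethanol DST and PLEC had log2 differences of 0.20 and 0.28.

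Keratins, the filaments that desmoplakin holds, included members as low as the desmosome genes and others near control. Of 8 keratin genes past the floor, 3 were at least 2-fold lower and 1 higher in ethanol, and 4 were lower and 0 higher in the clone, with medians of -0.40 and -1.07. In acetaldehyde 0 reached 2-fold, with a median of 0.04. KRT16, a keratin of stressed and stratified epithelium, was furthest from control, at 131 in ethanol and 1569 in acetaldehyde, against 1257 in the control, and at 117 in the clone against 5999 in its control. KRT15 had 46.0 in ethanol, under the floor, and 230 in acetaldehyde, against 315 in the control, at least 4.48-fold lower in ethanol. For KRT15 the clone had 32.7, also under the floor, against 432 in its control, at least 4.70-fold lower. KRT14, a basal keratin, had 105 in ethanol and 794 in acetaldehyde, against 607 in the control, and 202 in the clone against 3267 in its control. KRT5, its partner, had 3629 in ethanol against 6056, and 4159 in the clone against 12956, so a bright keratin signal remained where DSP was low. KRT7, KRT18 and KRT19 had log2 differences between -0.05 and 0.03 in ethanol, and KRT8 had 1.06. KRT19 had the identical value of 122 in control, ethanol and acetaldehyde, so it is one of the ties described above.

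**Figure D5:**
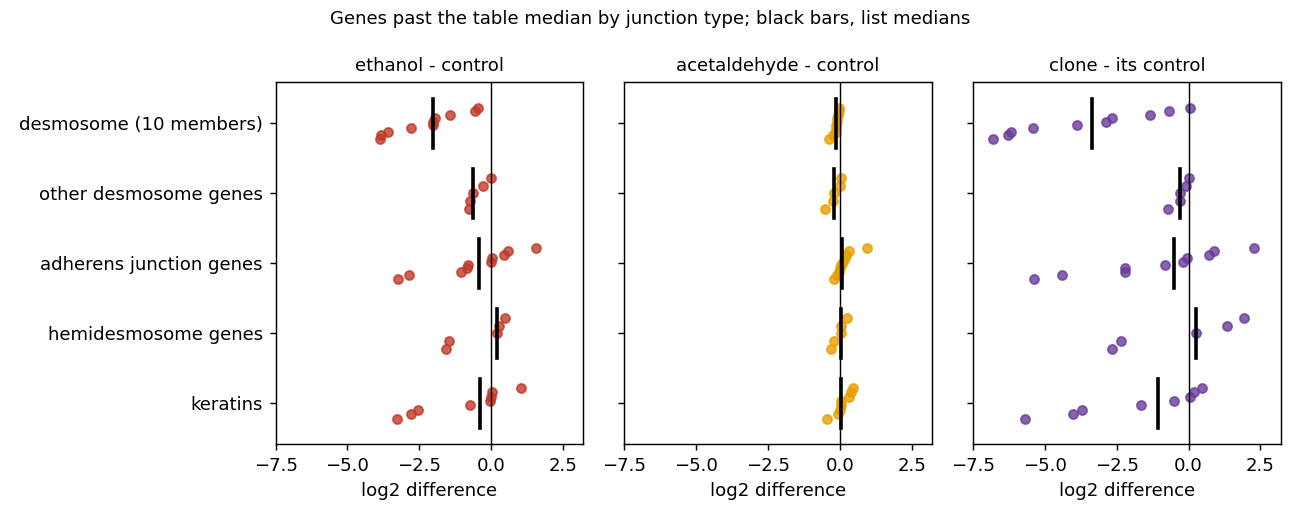
Log2 differences of the 10 desmosome genes and of 4 related gene lists in ethanol, acetaldehyde and the clone, for genes past the floor; each point is a gene and black bars are list medians. The 10 desmosome genes have the lowest medians in ethanol (-2.02) and the clone (-3.37), and the other lists spread to either side of 0 or stay within 1 of it. Members and lists were chosen with earlier results of these data known, so the order of the medians depends partly on that choice.

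Transcription factors that act on epithelial junction genes went both ways. Of 11 past the floor, 4 were at least 2-fold lower and 3 higher in ethanol, 0 lower and 2 higher in acetaldehyde, and 6 lower and 3 higher in the clone. The lower ones in ethanol were KLF5, OVOL1, GRHL1 and GRHL3, factors of epithelial differentiation. GRHL3 had 85.5 in ethanol and 293 in acetaldehyde, against 259 in the control. The clone had 66.7, below the floor, against 251 in its control. The higher ones were ZEB1, ZEB2 and TWIST1, drivers of mesenchymal change. ZEB2 had 318 in ethanol and 160 in acetaldehyde, against 61.5 in the control, and 395 in the clone against 71.3 in its control, with both control values below the floor. ZEB2 and TWIST1 were the 2 past 2-fold in acetaldehyde, at least 2.28-fold and 4.45-fold higher, and ZEB1 was 1.94-fold higher there. In ethanol ZEB2 was at least 4.52-fold, TWIST1 6.69-fold and ZEB1 3.03-fold higher. In the clone ZEB2 was at least 4.30-fold, TWIST1 2.35-fold and ZEB1 at least 2.49-fold higher. A link between these factors and the desmosome genes was not tested. SNAI2 stayed bright and near control in ethanol, at 3458 against 3578. In the clone it had 7120 against 4161 in its control, 1.71-fold higher. TP63 had no probe set with its symbol alone and was not analysed here.

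Of 5 genes of desmosome turnover, EGFR, the growth factor receptor whose signalling loosens desmosomes, was the 1 past 2-fold in ethanol, 2.26-fold lower, and again in the clone, 2.05-fold lower. The sheddase genes ADAM10 and ADAM17, whose products can cut DSG2, had log2 differences of -0.12 and -0.13 in ethanol and -0.20 and 0.94 in the clone. PRKCA, a kinase that lowers the adhesive strength of desmosomes, had 360 in ethanol against 195 and 491 in the clone against 271, below 2-fold both times.

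Across the 3 control comparisons, the genes nearest to the median desmosome profile were sought among 10435 others past the floor in all 3, by Euclidean distance of their log2 differences. The profile itself was -2.02 in ethanol, -0.12 in acetaldehyde and -3.37 in the clone. The nearest 8 were GPRC5A, P3H2, SPINT2, TNFSF10, PRRG4, DENND2C, IL18 and EHF, at distances of 0.29 to 0.48. GPRC5A, an orphan receptor gene induced by retinoic acid, had -1.93, 0.15 and -3.40 in the same order. SPINT2, a serine protease inhibitor of epithelial surfaces, had -1.87, -0.24 and -3.08. EHF, an epithelial ETS factor, had -2.49, 0.00 and -3.34.

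The labelled cell type was checked against its markers. Of 10 breast epithelial markers 8 were measured, and all 8 lay above the floor in acetaldehyde and in both controls, against 7 in ethanol (CD24 under it) and 5 in the clone (EPCAM, CDH1 and CD24 under it). Of these 8, 4 were lower and 1 higher by 2-fold in ethanol, with a median log2 difference of -1.64, 0 in acetaldehyde, with a median of 0.11, and 5 were lower and 0 higher in the clone, with a median of -2.30. In ethanol CD24 and EPCAM had log2 differences of -3.87 and -2.85, beside the low values of CDH1 and KRT14 given above. KRT5 had -0.74, KRT19 0.00, KRT18 0.03 and KRT8 1.06. In the clone KRT19, KRT8 and KRT18 had -0.51, 0.06 and 0.20. Thus only part of this list was lower in the same cultures as the desmosome genes. Their summed intensity, most of it KRT5 and KRT8 in ethanol, was 8171 in ethanol and 12594 in acetaldehyde, against 11554 in the control, and 10170 in the clone against 23942 in its control. Of 8 fibroblast markers, 4 were above the floor in ethanol, 4 in acetaldehyde and 3 in their control, with sums of 604, 584 and 497, and LUM and PDGFRA were under it in all 5 arrays. By 2-fold, 1 was higher and 0 lower in ethanol, and likewise in acetaldehyde, with median log2 differences of 0.07 and 0.04. In the clone 6 were above the floor and in its control 4, with sums of 1971 and 844. Of these 6, 4 were at least 2-fold higher in the clone and 0 lower, with a median of 1.51, beside 14.7% of all genes higher. They were COL3A1 and COL1A1, 4.19 and 2.21-fold, and FAP and DCN, at least 3.12 and 1.81-fold when taken against the floor. Of 5 adipocyte markers 2 were above the floor in ethanol and 1 in the control, with sums of 2383 and 233, nearly all of it FABP4 at 2163 in ethanol, and ADIPOQ, LEP and LPL were under it in all 5 arrays. Their sum was 349 in acetaldehyde, and 1253 in the clone against 360 in its control. Of 5 endothelial markers 0 were above the floor apart from KDR in the clone, with sums of 205 in ethanol, 194 in acetaldehyde and 194 in the control, and 462 in the clone against 280. Among 4 measured immune markers PTPRC and CD3E were under the floor in all 5 arrays, and CD14 and CD68 were above it in all 5. The sums of the list were 1624 in ethanol, 1195 in acetaldehyde and 861 in the control, with CD68 at 1484, 1055 and 721. They were 1177 in the clone against 1248. The part of these markers in the desmosome values was not tested. Heart muscle also makes PKP2 and DSP, and of 4 measured cardiomyocyte markers MYH6 and ACTN2 were under the floor in all 5 arrays. DES was above it in all 5, at 124 in ethanol, 104 in acetaldehyde and 104 in the control. In the clone DES had 164 against 191. MYH7 was above the floor only in the clone's control, at 117. The sums of the list were 268 in ethanol, 249 in acetaldehyde and 248 in the control, and 333 in the clone against 432.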

How the data were processed

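Intensities were measured in 5 MCF12A cultures on Affymetrix Gene ST arrays, 33297 probes each. The deposited intensity values are on a linear scale and were made by the authors with RMA, per the submitters' processing notes, with version and genome build not given in the sources used here. The 2 tables were treated as normalised separately. They belong to different array designs, so no level was set across them. Probes were named through the annotation of each design: 19181 and 19460 had 1 symbol, 2055 and 1754 several, 12061 and 12083 none. A gene was taken from its brightest probe by mean log2 intensity, and log2 differences were taken within a table.

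The 10 members and the 13 lists, with 94 genes, were chosen with earlier results of these data known. Named genes are the members, list genes and the 8 nearest profiles, by the rule set with the lists. Not every list gene furthest from control is named, and some named list genes were picked for their role. Counts use 2-fold. The counting was tested on simulated data. Sequences and motif counts come from the RefSeq promoter table (GRCh38.p14). Python 3.11.15, numpy 2.4.6, pandas 2.3.3 and matplotlib 3.10.9 were used.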

Additional observations from a re-analysis of the deposited data

Results flagged for a closer look

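PKP2 stood out because its difference from the own control had opposite signs in the cultures exposed to ethanol. The log2 difference was 0.051 in the clone, at 224 against 216, and -2.02 in the ethanol culture, at 115 against 466. Each value comes from a single pair of arrays of the same design. The pairs differ in array design, and the difference between the values was not tested. With a second quantile normalisation the clone's value was -0.04.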

How the results depend on the processing

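Alternatives were no floor, a floor at the 25th percentile, values under the floor raised to it, 1.5-fold in place of 2-fold, centring, a lowess correction for brightness, a second quantile normalisation and the mean of a gene's probes. With no replicates, a log2 value was said to move when it shifted by 1.5-fold or more, and a count when it changed by over 1.5 times. None of the 92 recomputed counts and medians of the 10 genes moved or changed direction, but many of them could not. Each of the 10 has 1 probe set and lies past the floor. Dropping the floor, lowering it or taking the probe mean therefore leaves their values unchanged. In the table of exposed cultures, centring and raising values to the floor change nothing for them either. The same limit holds for the values of single genes below. The median in ethanol ran between -2.03 and -2.02 and in the clone between -3.41 and -3.12. With 1.5-fold counted, 9 genes were lower in the clone and 8 in ethanol, beside 1867 and 576 of all genes (715 and 275 at 2-fold). In acetaldehyde 0 of the 10 reached 1.5-fold, beside 46 lower and 242 higher of all genes (6 and 115 at 2-fold), and against ethanol 8 were higher at 1.5-fold, beside 424 of all genes (208 at 2-fold). Of 308 values of single genes and counts of genes below control by any amount, that last count added after seeing the data, 3 moved, all with values raised to the floor: DSC2, DSC3 and DSG3 in the clone had -3.37, -4.77 and -5.39 in place of -5.42, -6.80 and -6.27. The size of these differences is limited by how dim the clone is there. The number of all genes below control by any amount was 3575 in acetaldehyde and 8212 after a second quantile normalisation, and in ethanol 3951 and, after lowess, 6025. Genes with tied values do not count as below control in such numbers. PKP2 in the clone turned from 0.051 to -0.04 with the second quantile normalisation. No paired analysis was possible because each group has 1 array and the labels number no replicates.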
